A study of Mus musculus with 9 samples.

Results

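The comparison described here sets RAW264.7 cells given lipopolysaccharide (LPS) and then 1 µM of ginsenoside Rd (GRd) against the control cells of the same study. Its members are 6 of the study's 9 small RNA libraries, 3 control and 3 at 1 µM, chosen by their labels alone. The 3 libraries at 10 µM do not enter any test. RAW264.7 is an established mouse macrophage-like line, ginsenoside Rd is a saponin of ginseng, and LPS is the bacterial outer membrane component that activates macrophages through Toll-like receptor 4. All 6 libraries are labelled wild type. The treated cells had LPS for 6 h and then 1 µM GRd for 24 h. The labels conflict on the controls: their treatment label says that they had neither agent, while their library code and the common treatment protocol place them at 0 µM GRd after LPS. The comparison may therefore differ in GRd alone or in both agents, and these cannot be told apart. No label states whether the libraries of a group were separate cultures. The p-values thus reflect only the spread among these libraries, which may be technical.

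A microRNA (miRNA) is cut from a hairpin precursor, whose 5p and 3p arms each can give a mature strand of about the length of the reads analysed here. Bases 2 to 8 from its 5′ end, the seed, set most of the pairing with target messenger RNAs, so strands with the same seed act on overlapping targets. In macrophages miR-155 and the miR-132 and miR-212 pair rise after LPS, and miR-146a and miR-21 act as brakes on Toll-like receptor signalling. Tables of small RNA reads also hold pieces of other RNAs under miRNA names. Transfer RNAs (tRNAs) are one such source, and their mature 3′ ends carry CCA, 3 bases that an enzyme adds after transcription.

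The seed families that passed the test below are made mostly of 18-base sequences that end in CCA, and the 13 abundant ones of that kind are printed here with CCA in capitals, grouped by seed. Names are those of the deposited table, in which the prefix is the species of the nearest listed miRNA, L and R count bases lost or gained at the 5′ and 3′ ends, and ss marks a substitution. The first pair has the seed TCCCACT.
mmu-miR-3968_L-3_1ss14AT: atcccactcctgacaCCA
bta-miR-2478_L-2: atcccacttctgacaCCA
The next 3 have the seed TCCCACC.
bta-miR-1260b_1ss9AG: atcccaccgctgccaCCA
hsa-miR-1260b_R-1: atcccaccactgccaCCA
hsa-miR-1260a: atcccacctctgccaCCA
A pair has the seed TCCCTGT, and is followed by a 22-base relative with the same 3′ end.
pal-miR-9226-5p_L-4: gtccctgttcgggcgCCA
pal-miR-9226-5p_L-4_1ss15GA: gtccctgttcaggcgCCA
pal-miR-9226-5p: tcaagtccctgttcgggcgCCA
A pair has the seed TCTCGCT.
pal-miR-9993b-3p: atctcgctggggcctCCA
pal-miR-9993b-3p_1ss9GT: atctcgcttgggcctCCA
The last 4 each have a seed of their own.
pal-miR-9993a-3p: atctcggtgggacctCCA
hsa-miR-4286_R+1: accccactcctggtaCCA
hsa-miR-7977_1ss6AG: ttcccggccaacgcaCCA
hsa-miR-4454_L-2: atccgagtcacggcaCCA
None of these 18-base sequences lies whole in any of the 1174 annotated mouse hairpins, although bta-miR-2478_L-2 without its last bases matches the Mir3963 hairpin on chromosome 3.

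The macrophage miRNAs that the comparison turns on are printed with the seed in capitals, to show which strands were counted. Coordinates are those of the annotated hairpin genes (GRCm38).
miR-155-5p, Mir155, chr16:84714140-84714204: tTAATGCTaattgtgataggggt
miR-146a-5p, Mir146, chr11:43374397-43374461: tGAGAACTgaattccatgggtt
miR-21a-5p, Mir21a, chr11:86584067-86584158: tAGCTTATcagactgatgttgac
miR-132-3p, Mir132, chr11:75173682-75173747: tAACAGTCtacagccatggtcg
miR-223-3p, Mir223, chrX:96242817-96242926: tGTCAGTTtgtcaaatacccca
miR-221-3p, Mir221, chrX:19146294-19146388: aGCTACATtgtctgctgggttt
miR-222-3p, Mir222, chrX:19146893-19146971: aGCTACATctggctactgggtct
miR-451a, Mir451a, chr11:78073170-78073241: aAACCGTTaccattactgagt
The last is a red cell miRNA, shown because it had the largest difference among abundant sequences, most of its counts being in 1 library. miR-221-3p and miR-222-3p come from neighbouring hairpins and share the seed GCTACAT.

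The deposited values are normalized counts, and 1571 different sequences were listed over 1608 rows. Summed normalized counts ran from 6235670 to 6542220 over the 6 libraries, and the steps between low values give about 4933690 to 9187090 reads behind them. The values are thus relative amounts within a library. Between 811 and 1049 sequences were detected per library, and 93.8% to 96.0% of the summed counts lay in mouse hairpins. Log2 values of any pair of libraries correlated at 0.989 to 0.997 across the 402 abundant sequences, those with a mean of at least 50. The median standard deviation between replicates was 0.16 on the log2 scale in the controls and 0.13 at 1 µM.

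No single sequence passed the test of 1 µM against control. Differences are given throughout as log2(value + 1) at 1 µM minus control, tested two-sided with limma and Benjamini-Hochberg adjustment at 0.05 over all features. Of 1272 sequences tested, which reached a mean of 1 in either group, 0 passed, which is 0% called, and 59 had an unadjusted p under 0.05. The smallest adjusted p was 0.0797, shared by 5 sequences that all end in CCA and were all higher at 1 µM. Over the 1272 sequences the median difference was −0.01, with 614 above 0 and 658 below. Among the 402 abundant sequences the groups did not overlap and were higher at 1 µM for 38, or 9.45%, and lower for 14, or 3.48%. Of those 38 sequences 18 belong to the CCA-ended class described below, and of the 14 lower ones 0 do.

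**Figure D1:**
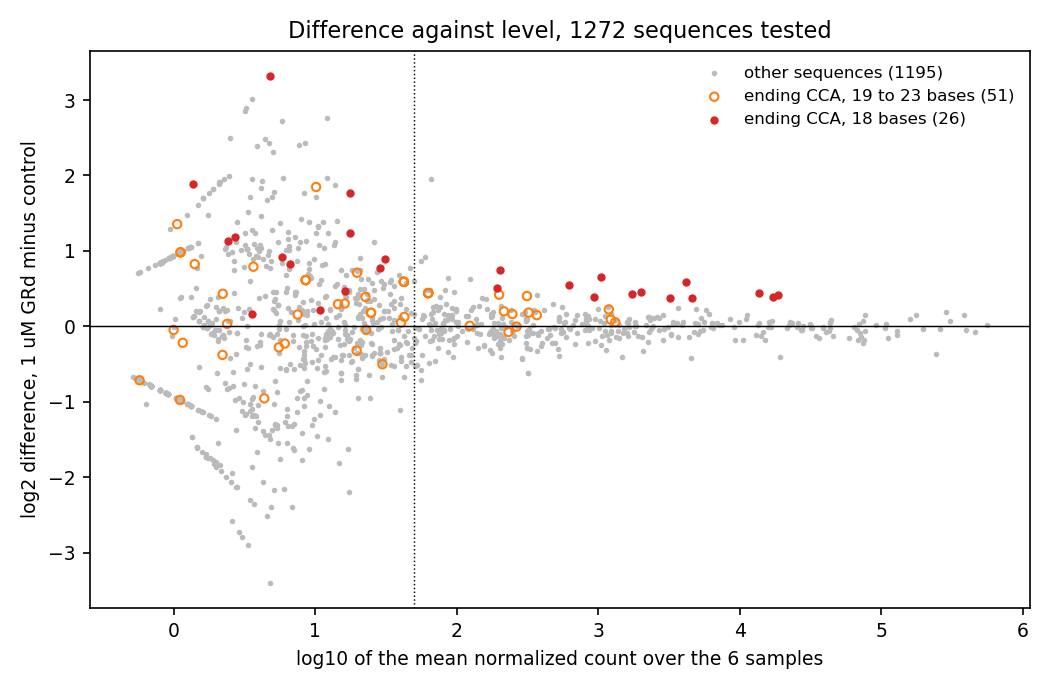
Each point is 1 of the 1272 sequences tested, with the log10 mean normalized count over the 6 samples on the x axis and the log2 difference between 1 µM GRd and control on the y axis; the dotted line marks a mean of 50. Filled red points are the 26 tested 18-base sequences that end in CCA and do not lie whole in a mouse hairpin, and all of them lie above 0. Some rare ones, at 0 in every control, passed the filter only through the treated group.

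The 5 sequences with the smallest adjusted p were 18 bases long and are listed under names of very different miRNAs. hsa-miR-4454_L-2 read 677, 906 and 857 normalized counts in the 3 controls and 1217, 1345 and 1243 at 1 µM, a log2 difference of 0.65 ± 0.12 (SE; limma adjusted p = 0.0797). pal-miR-9226-5p_L-4 read 508, 503 and 487 in controls and 725, 756 and 714 at 1 µM, a difference of 0.55 ± 0.11 (SE). In both, every treated library lay above every control. hsa-miR-7977_1ss6AG stood at 2888, 3629 and 3538 against 4934, 5680 and 4453, a difference of 0.58. For pal-miR-9993b-3p the values were 1659, 1701 and 1735 against 2310, 2431 and 2261, a difference of 0.46. bta-miR-2478_L-2 gave 11736, 11924 and 10950 against 16276, 16356 and 14487, a difference of 0.44. None of these groups overlapped, and none of the 5 passed at 0.05.

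Summed by seed, 5 families were higher at 1 µM and none was lower, and each owes most of its counts to such CCA-ended 18-base sequences. This is 0.529% of the 946 seed families tested, and 49 had an unadjusted p under 0.05. The family TCCGAGT, 99.7% of it hsa-miR-4454_L-2, summed to 679, 909 and 857 normalized counts in controls and 1217, 1345 and 1257 at 1 µM, a difference of 0.65 with a 95% interval of 0.39 to 0.91 (limma adjusted p = 0.0293). The family TCCCTGT, led by pal-miR-9226-5p_L-4, summed to 694, 701 and 579 in controls and 1032, 1033 and 918 at 1 µM, a difference of 0.60 with an interval of 0.35 to 0.85 (adjusted p = 0.0293). The treated libraries lay above all controls in both families.

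The other 3 called families also had every treated library above every control. TCCCGGC, which is 99.8% hsa-miR-7977_1ss6AG, stood at 2893, 3636 and 3544 in controls and 4942, 5688 and 4460 at 1 µM, a difference of 0.58 (interval 0.34 to 0.82). TCTCGCT, made up of pal-miR-9993b-3p and its variants, stood at 1835, 1874 and 1931 against 2560, 2689 and 2554, a difference of 0.47 (0.28 to 0.66). Both had an adjusted p of 0.0293. TCCCACT was the most abundant of the 5, at 26094, 27384 and 28801 against 37460, 37811 and 35150, a difference of 0.42 (0.24 to 0.61; adjusted p = 0.0409), and joined mmu-miR-3968_L-3_1ss14AT with bta-miR-2478_L-2. No member sequence of the 5 families passed singly. TCCGAGT and TCCCGGC are almost wholly their leading sequence, so their calls are no separate support for a change in it. These seed sums describe amounts, and no target of any of these sequences was measured.

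The 5 calls did not hold under several settings. Leaving out any 1 of the 6 libraries left 0 seed families called, with the smallest adjusted p between 0.0743 and 0.415. None was called either with a pseudocount of 0.1, with rows of equal values counted once, or with the spread from all 9 samples, where the smallest adjusted p was 0.0604, 0.0598 and 0.928, although each of the 5 kept its direction in every alternative run. Among the families of next smallest p, 4 led by CCA-ended sequences had groups that did not overlap and did not pass. The difference was 0.38 for TCTCGGT (miR-9993a-3p), 0.39 for TCCCACC (miR-1260 forms) and 0.38 for CCCCACT (miR-4286), with a limma adjusted p of 0.194 each. The family ATCTCGG, listed as miR-9995-3p and related forms, differed by 0.61 (adjusted p = 0.337). It sums 7 sequences, and the leading one, a numbered form, holds 21.7%. Copies of equal values were not removed from that sum, so it may count the same reads more than once.

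**Figure D2:**
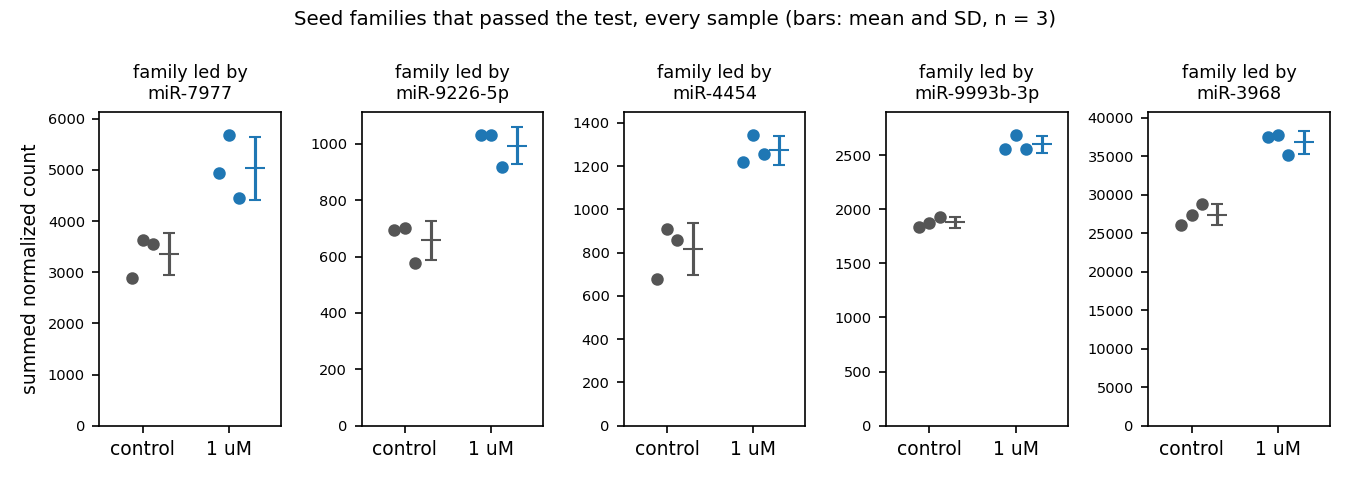
Summed normalized counts of the 5 seed families that passed the test, named by their most abundant sequence, with a linear axis from 0 for each. Points are the 3 control and 3 treated libraries and bars are the mean with the SD (n = 3); in each family all treated points lie above all control points.

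Sequences ending in CCA were then described as a class, chosen after the values above were seen and therefore given without a test. The table holds 84 sequences that end in CCA and do not lie whole in a mouse hairpin, of which 77 were tested and 29 were abundant. No tRNA sequence of the nucleus was compared with them, so their source was not tested. The tested ones had a median difference of 0.42, with 64 above 0 and 13 below, against −0.01 over all sequences tested. These 77, and the sums below, include numbered copies with equal values. They also include rare members at 0 in every control, such as cgr-miR-1260_1ss14CT, which passed the filter through the 1 µM group alone. The direction of those was fixed by the filter. Without the numbered copies 26 were abundant, of which 24 were above 0, with a median of 0.39. The tested ones summed to 0.965%, 1.07% and 0.99% of the normalized counts in the controls and to 1.39%, 1.42% and 1.22% at 1 µM.

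Among the CCA-ended sequences the difference was smaller at greater length. All 13 abundant ones of 18 bases were higher in every treated library than in any control, with differences from 0.38 to 0.75 and a median of 0.44. Of 9 abundant ones of 19 bases, 9 were above 0 and 5 had groups that did not overlap, with a median of 0.42, but 4 of these 5 are numbered copies of pal-miR-9993b-3p_L+1 with equal values. Counting each set of copies once left 6 abundant sequences of 19 bases, 2 without overlap, and a median of 0.31. Of 7 abundant ones of 20 bases or more, 0 had groups apart and the median was 0.05, from −0.08 to 0.20. Most of those 7 are listed as miR-9226 forms, while most of the 13 of 18 bases are not. In these medians length and sequence family therefore cannot be told apart.

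The same 3′ end could be followed at different lengths. Beside the 18-base pal-miR-9226-5p_L-4 given above, the 22-base pal-miR-9226-5p read 287, 246 and 261 in controls and 291, 231 and 271 at 1 µM, with overlapping groups and a difference of −0.00. The 18-base form was 1.77, 2.05 and 1.87 times the 22-base form in the controls and 2.49, 3.27 and 2.64 times at 1 µM. The same held for bta-miR-2478: the 22-base form bta-miR-2478_L+2 read 1174, 1160 and 1223 against 1359, 1230 and 1199, a difference of 0.09. The ratio of its 18-base form to this one was 9.99, 10.3 and 8.96 in controls and 11.98, 13.3 and 12.1 at 1 µM. In both cases all 3 treated ratios lay above all 3 control ratios. Of the 13 pairs of an 18-base form with an abundant longer one, 8 had ratios apart in this way and 5 overlapped. Most of these pairs share the 18-base form pal-miR-9226-5p_L-4, so they are not separate cases. Every 18-base form in them already had groups apart, so the ratios are no separate support. They were apart in 6 of 7 pairs with a longer form of 20 to 22 bases and in 2 of 6 with one of 19 bases, and the ratio of bta-miR-2478_L-2 to its 19-base form, 54.7, 55.3 and 41.1 against 54.8, 57.9 and 70.3, overlapped.

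The remaining abundant 18-base members included the highest CCA-ended values in the table. mmu-miR-3968_L-3_1ss14AT read 14341, 15423 and 17830 in controls and 21142, 21411 and 20628 at 1 µM, a difference of 0.41. bta-miR-1260b_1ss9AG read 13790, 16953 and 13978 against 20458, 20455 and 17524, a difference of 0.39. Neither passed (limma adjusted p = 0.226 and 0.324), and their groups did not overlap. hsa-miR-4286_R+1 stood at 3852, 4422 and 3631 against 5087, 5585 and 4799. pal-miR-9226-5p_L-4_1ss15GA had the largest difference of the 13, at 182, 190 and 88.8 against 288, 266 and 193, or 0.75 ± 0.27 (SE).

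Sequences of like length with other ends or in hairpins were described beside them. Those of 18 bases with other ends that do not lie whole in mouse hairpins had 8 abundant members with a median of 0.17, from −0.53 to 0.91, and 2 had groups apart. Those 2, cgr-miR-1260_1ss18AG and hsa-miR-4454_L-3R+1, bear the names of CCA-ended relatives. The first read 25.5, 60.4 and 35.8 in controls and 74.0, 74.1 and 62.4 at 1 µM. Sequences of 18 or 19 bases in mouse hairpins had 11 abundant members with a median of 0.09, and 2 were higher with groups apart, the trimmed match bta-miR-2478_L-2 and hsa-mir-32-p3. Over all 402 abundant sequences, 9.45% were higher and 3.48% lower with groups apart. The 3 abundant sequences that end in CCA and do lie whole in a mouse hairpin differed by 0.10 to 0.16, with overlapping groups. The part of insert length in the result was not tested.

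**Figure D3:**
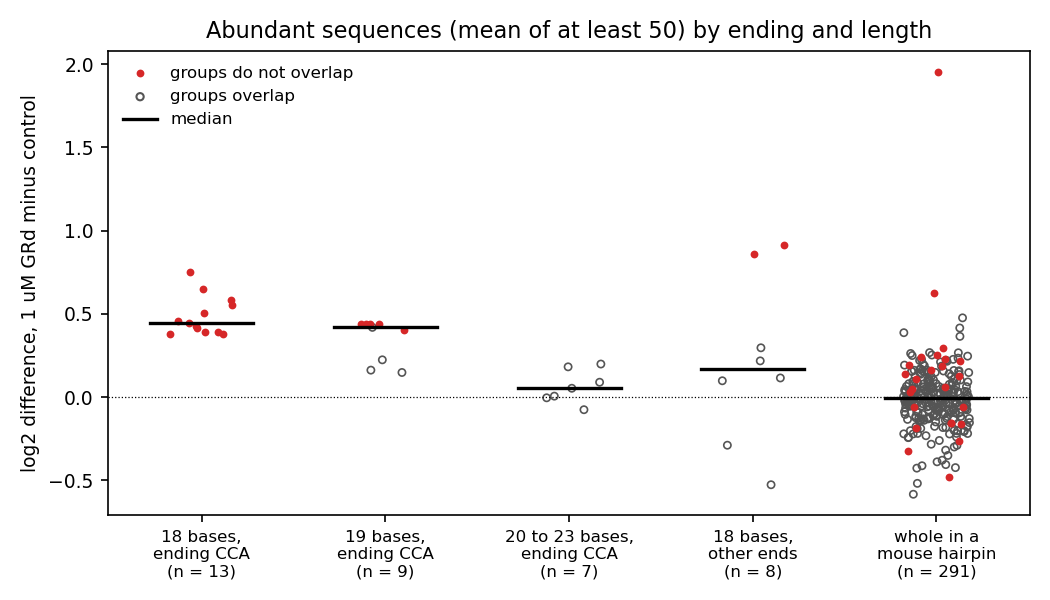
Log2 difference between 1 µM GRd and control of abundant sequences (mean of at least 50), by 3′ ending and length; each point is 1 sequence, red where the 3 control and 3 treated values do not overlap, and bars are medians. The 4 columns on the left hold sequences that do not lie whole in a mouse hairpin; all 13 points of the 18-base CCA column are red, from 0.38 to 0.75, while the column of 20 bases or more lies around 0.

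The miRNAs that mark macrophages and their response to LPS were present in all 6 libraries, and none passed the test. miR-155-5p, the LPS-induced miRNA from the former BIC transcript, read 66926, 71210 and 54164 normalized counts in controls and 53888, 61111 and 77411 at 1 µM. The groups overlapped and the difference was −0.01, with a 95% interval of −0.32 to 0.30. miR-146a-5p, which targets the adaptors of Toll-like receptor signalling IRAK1 and TRAF6, read 148167, 173836 and 180691 against 172208, 179306 and 206395, a difference of 0.15 (−0.11 to 0.41). The treated values were on the high side but overlapped the controls.

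miR-21a-5p, which targets PDCD4, read 333587, 292297 and 271479 in controls and 280144, 292835 and 375147 at 1 µM, a difference of 0.07 (−0.23 to 0.37). miR-132-3p, raised by CREB, read 6550, 6957 and 7830 against 6982, 7030 and 7432, a difference of 0.01 (−0.19 to 0.21). For both, the treated values lay within or around the control range. miR-223-3p, a marker of myeloid cells, was at 967, 971 and 800 against 949, 888 and 1089. miR-142a-5p, found across blood cells, was at 5929, 5019 and 4966 against 5527, 5510 and 7690, a difference of 0.22 (−0.06 to 0.51). Groups overlapped for each of these, and the widest interval among the 12 macrophage miRNAs plotted was that of the rare miR-147-3p, −0.68 to 0.95.

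**Figure D4:**
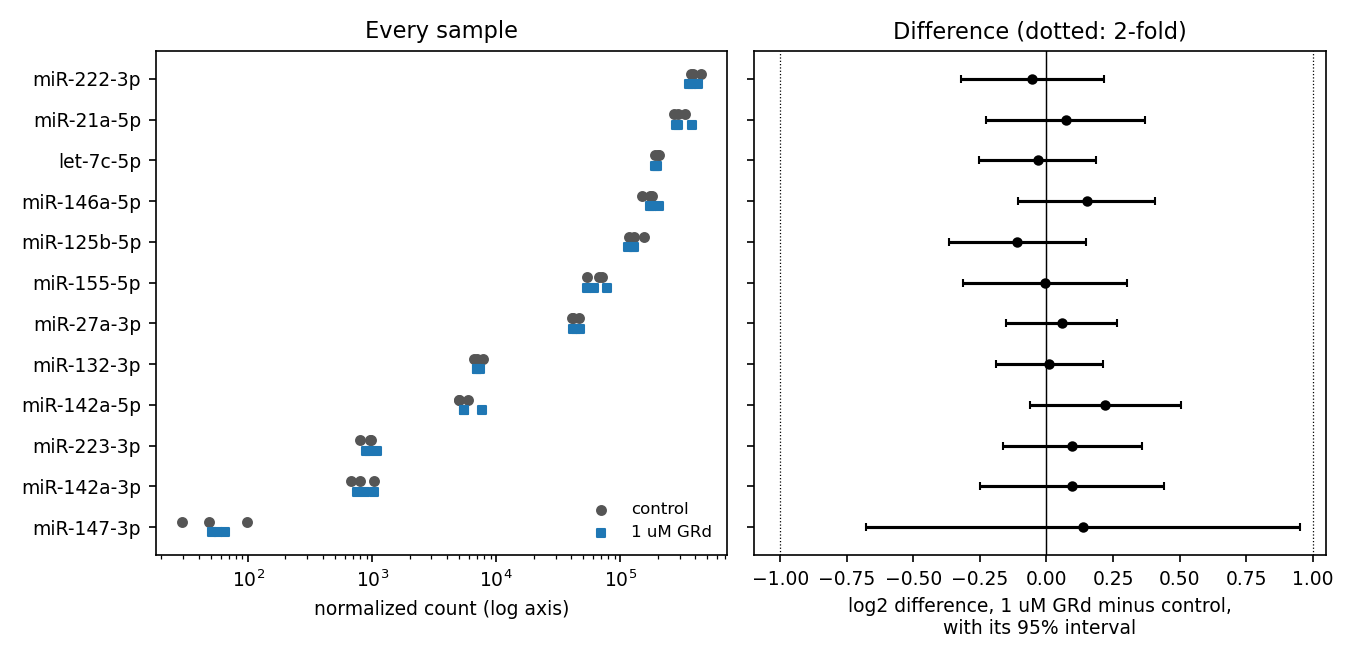
Left, normalized counts of 12 macrophage miRNAs in every library on a log axis (circles control, squares 1 µM GRd); right, the log2 difference with its 95% interval from limma, with dotted lines at a 2-fold change. Every interval includes 0 and lies inside 2-fold.

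Lists of macrophage miRNAs and of large miRNA families were described by their counts and medians, with 0 members of any list passing. Of 25 miRNAs listed as induced by LPS, 24 were in the table, as 27 sequences, of which 26 were tested. There were 19 above 0 and 7 below, and the median was 0.06, beside −0.01 over all sequences tested. The groups did not overlap for 4 of the 26, all higher, beside 6.13% higher and 3.14% lower over all sequences tested. The 19 abundant members stayed between −0.19 and 0.22. Brakes on Toll-like receptor signalling had 14 tested sequences above 0 and 4 below, with a median of 0.08. Myeloid miRNAs, with copies of equal values counted once, split into 13 above and 9 below, with a median of 0.05. miRNAs of alternative activation, such as let-7c, miR-378a and miR-511, had 2 of 8 above 0 and a median of −0.19.

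Among the families, let-7 had 5 sequences above 0 and 7 below. The groups did not overlap for 3 of them, all lower at 1 µM, beside 3.14% lower and 6.13% higher over all sequences tested. The 3 were let-7d-5p, let-7a-5p at −0.06 and the rare let-7a form cfa-let-7a_R+2. let-7d-5p, the most abundant of these, read 115981, 112910 and 123108 in controls and 108860, 100376 and 107219 at 1 µM. That difference was −0.15 (−0.36 to 0.06), and it did not pass (limma adjusted p = 0.764). The family miR-181, known from lymphoid and myeloid development, had 1 sequence above 0 and 6 below with a median of −0.16, counting copies of equal values once. miR-181a-5p itself stood at 37476, 40155 and 37658 against 34214, 36309 and 32781, with groups apart and a difference of −0.16 (limma adjusted p = 0.764). It was the 1 lower sequence of the family with groups apart. Another 1 was higher with groups apart, beside 3.14% lower and 6.13% higher over all sequences tested. The families miR-17-92, miR-15 and miR-16, miR-23 with miR-27 and miR-24, miR-29, miR-30, and miR-99 with miR-100 and miR-125 had medians from −0.06 to 0.05. miR-34 and miR-449 had 7 tested sequences with a median of −0.05.

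**Figure D5:**
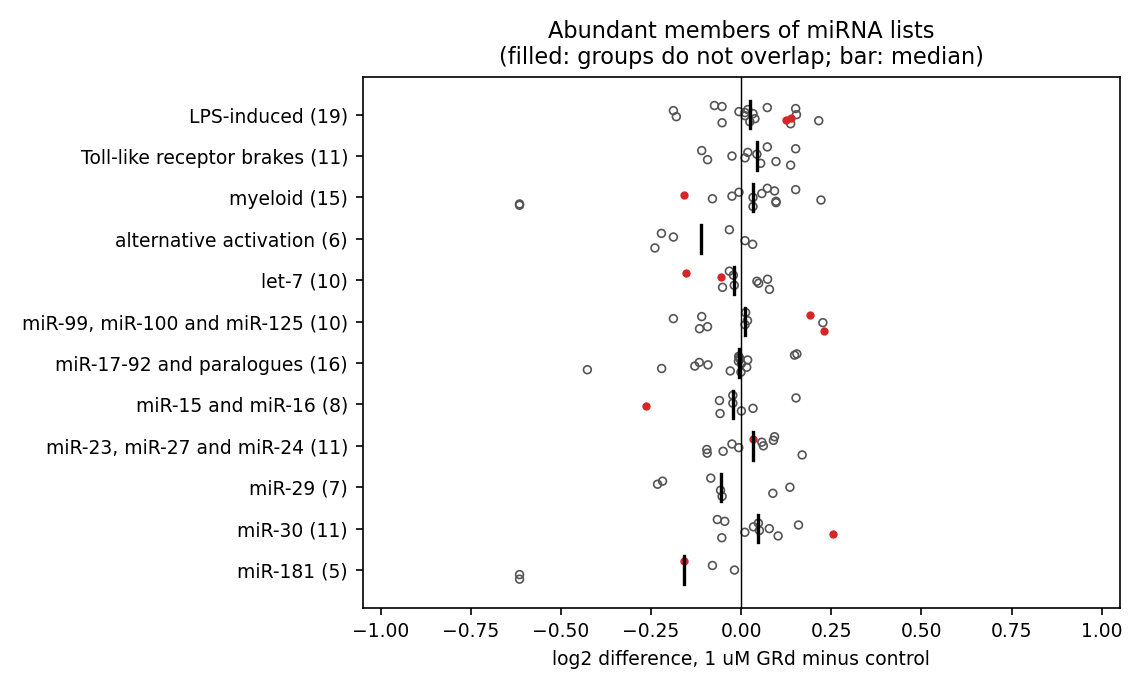
Log2 difference between 1 µM GRd and control of the abundant members (mean of at least 50) of 12 lists, with the number of members in brackets; filled points are sequences whose 3 control and 3 treated values do not overlap, and bars are medians. Members lie around 0, and the pair near −0.61 under myeloid and miR-181 is 1 set of values listed under 2 names.

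The most abundant miRNAs were close between the groups, and the intervals bound how far they could differ. miR-99b-5p, the highest in the table, read 611204, 574402 and 483807 normalized counts in controls and 613358, 585581 and 485302 at 1 µM, a difference of 0.01 (−0.29 to 0.31). miR-221-3p read 455081, 468248 and 485466 against 447771, 419602 and 471909, a difference of −0.07 (−0.32 to 0.17). miR-99a-5p, which shares the seed ACCCGTA with miR-99b-5p, was the one among the 10 highest whose groups did not overlap, at 256139, 276130 and 267568 against 291191, 304294 and 318200, and its difference of 0.19 did not pass (adjusted p = 0.764). Summed over its seed, ACCCGTA differed by 0.07, with overlapping groups.

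Among the 331 abundant sequences that match mouse hairpins, 319 had a 95% interval inside 2-fold in either direction and 217 inside 0.5 on the log2 scale. Their median absolute difference was 0.09. Of the 149 with a mean of at least 1000, 148 had an interval inside 2-fold and 0 differed by more than 0.5. miR-5099, which matches no annotated mouse hairpin here although listed as a mouse miRNA, read 320224, 265476 and 234676 in controls and 235905, 234791 and 169410 at 1 µM, the largest difference among the 10 highest at −0.36 (−0.70 to −0.03; limma adjusted p = 0.764), with overlapping groups.

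Abundant sequences of mouse hairpins with groups that did not overlap included few of large size. hsa-mir-32-p3, which lies whole in the Mir32 hairpin, read 89.2, 101 and 102 in controls and 147.1, 178.7 and 129.2 at 1 µM, a difference of 0.62 ± 0.19 (SE; limma adjusted p = 0.407). This 19-base sequence was matched to no mature strand of that hairpin. miR-574-5p stood at 2194, 2097 and 2656 against 1832, 1771 and 1910, a difference of −0.33 ± 0.11 (SE; adjusted p = 0.527). miR-503-5p, a relative of the miR-15 and miR-16 family, stood at 415, 441 and 439 against 367, 357 and 354, a difference of −0.26. miR-1947-5p stood at 77.5, 78.3 and 66.3 against 55.3, 58.9 and 44.5. None of these passed.

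miRNAs listed as markers of other cell types were mostly low, with exceptions such as miR-200c-3p and miR-128-3p, whose source was not tested. miR-200c-3p, an epithelial marker, read 2040, 1919 and 1970 in controls and 1782, 1715 and 1928 at 1 µM. The neuronal marker miR-128-3p read 2419, 2669 and 2637 against 2753, 2719 and 2843. miR-451a, abundant in red cells, read 13.8, 26.8 and 22.5 normalized counts in controls and 31.6, 76.0 and 222.7 at 1 µM, a difference of 1.95 ± 0.56 (SE; limma adjusted p = 0.387). All treated libraries lay above the controls, and replicate 3 at 1 µM held most of the counts. Its red cell companions moved with that library: miR-144-3p was at 0 in all controls and at 0, 7.604 and 15.59 at 1 µM, and miR-486a-5p was at 28.1, 27.5 and 28.5 against 31.1, 19.01 and 69.6. All 3 red cell sequences in the table were above 0 in difference, and summed they ran from 41.9 to 54.2 in controls and 62.7 to 308 at 1 µM. Without that library miR-451a differed by 1.23 (limma adjusted p = 0.796) and miR-486a-5p by −0.20. In the libraries at 10 µM, left out of the comparison, replicate 3 was also the highest. There miR-451a read 36.2, 83.0 and 201, miR-144-3p 0, 6.15 and 24.8, and miR-486a-5p 24.4, 56.4 and 131.5. In bulk RNA more cells of a type and more RNA per cell cannot be told apart, and the part of red cell RNA in these values was not tested.

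The lists of liver and gut, epithelial, endothelial, fibroblast and muscle, neuronal, lymphocyte and stem cell miRNAs also had 0 members passing. The summed counts of liver and gut miRNAs ran from 1185 to 1208 in controls and 1167 to 1402 at 1 µM. Epithelial ones, mostly miR-200c-3p, ran from 2198 to 2316 and 1942 to 2205. The endothelial miR-126a-3p read 25.5, 30.9 and 22.5 against 44.4, 27.6 and 53.5. Fibroblast and muscle miRNAs summed to between 931 and 1045 in controls and 1026 and 1100 at 1 µM, with 4 tested sequences above 0 and 4 below. The rare miR-145a-5p read 0, 3.43 and 0 against 5.92, 14.3 and 11.1. Also rare, miR-10b-5p read 7.43, 8.93 and 7.96 against 14.3, 27.6 and 16.7, and miR-214-3p 11.7, 0 and 0 against 12.8, 42.8 and 5.57. Groups were apart for 2 of the 8 tested, both higher, beside 6.13% higher and 3.14% lower over all sequences tested. By contrast miR-143-3p read 21.2, 17.2 and 17.2 against 19.7, 14.3 and 14.5, and the more abundant miR-199a-3p differed by −0.04. The lymphocyte miR-150-5p stayed under 39 in every library. Of 41 listed strands of the Dlk1-Dio3 cluster, which is silent in many cell lines, 10 were in the table and their sums stayed under 54.

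Few sequences were at 0 throughout 1 group and above 0 throughout the other, and all of them were rare, with a mean of at most 9.57 in the group that had them. There were 6 sequences at 0 in all 3 controls and above 0 in all 3 treated libraries, and 5 the other way round, while 659 were above 0 in all 6. miR-6958-3p read 8.49, 9.61 and 10.6 in controls and was at 0 in the 3 treated libraries (limma adjusted p = 0.285). cgr-miR-1260_1ss14CT, a CCA-ended relative of the abundant miR-1260b forms, was at 0 in the 3 controls and read 8.88, 14.3 and 5.57 at 1 µM. No fold is given for either, since 1 group is listed at 0.

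The balance of the 2 arms of a hairpin was also compared, as the 5p minus the 3p strand on the log2 scale. Of 175 hairpins with both arms, 0 passed, which is 0% called, and 6 had an unadjusted p under 0.05, with a smallest limma adjusted p of 0.941. In the 90 hairpins with both arms abundant the median absolute change in balance was 0.11 and the largest 0.82. That largest was Mir182, whose 5p strand read 27626, 20173 and 17958 in controls and 14303, 15798 and 19065 at 1 µM while its 3p strand read 262, 300.05 and 387 against 382, 493 and 384. The 5p values overlapped between the groups. Mirlet7g moved by −0.39 (−0.76 to −0.01; limma adjusted p = 0.941), as its rare 3p strand stood at 142.3, 136.6 and 115.4 against 180, 166 and 163.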

How the data were processed

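The authors deposited 1 table of normalized counts, a signal per small RNA sequence and library that they scaled in a way not given in the sources used here. Per the labels' protocols, total RNA was extracted with Trizol, libraries came from the TruSeq Small RNA kit, and reads from a HiSeq 2500 were filtered with ACGT101-miR for adapter dimers, junk, low complexity, repeats and the common RNA families, tRNA among them. Neither aligner nor build is given in the sources used here. Since 85.3% to 91.3% of low values per library were whole multiples of that library's smallest step (within 0.01 of a whole number), no count test was run.

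Rows with a repeated sequence were counted once (37 rows dropped). Sequences were matched to 1174 hairpins of the GENCODE annotation (GRCm38), whole or after trimming up to 3 bases from the 3′ end. Of them, 678 took a mouse mature name from RefSeq (GRCm38.p6). log2(value + 1) was tested with limma 3.58.1 (R 4.3.3) with a mean-variance trend, and without one for arm balance. The 6 libraries entered with 1 mean per group, a mean of at least 1 in either group was required, and p was adjusted by Benjamini-Hochberg. An exact permutation test of 3 against 3 could not go below 0.1. In data simulated from these libraries with 1213 sequences tested, 86 of 100 changes of 2-fold and 100 of 100 of 4-fold were recovered, and 6 unchanged sequences were called. Both sets of changes were put in together, and only into sequences with a mean of at least 50. Recovery among rarer sequences, or where few sequences change, was not simulated. The text names the called features or else those of smallest p, abundant ones whose groups do not overlap, 12 macrophage miRNAs, the most abundant sequences, list members, and those at 0 in 1 group. Members and lists were chosen with earlier results of these data known. The CCA-ended class was chosen after its values were seen. Tools otherwise were Python 3.11.15, pandas 2.3.3, numpy 2.4.6 and matplotlib 3.10.9.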

Additional observations from a re-analysis of the deposited data

Results flagged for a closer look

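The libraries at 10 µM GRd, which no test here used, were read at the 5 called seed families. In 3 families the lowest of the 3 libraries at 10 µM lay above the highest control, although the groups share their controls with the comparison above and are no independent support. For TCCCACT this lowest value was 34999 normalized counts, against a highest control of 28801. For TCCCTGT it was 726 against 701, and for TCTCGCT it was 2085 against 1931. The other two called families did not separate in this way: TCCCGGC read 3326, 3859 and 3935 at 10 µM against 2893 to 3636 in controls, and TCCGAGT read 972, 1035 and 581 against 679 to 909. The spread at 10 µM was wide for TCTCGCT, whose libraries read 2085, 2573 and 7099.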

How the results depend on the processing

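Sequences stayed at 0 called in each direction under every alternative but one: with the mean-variance trend switched off, 5 were higher and 5 lower, all rare. Of the 5 seed families higher at 1 µM, 0 were called with a pseudocount of 0.1, with rows of equal values counted once, with the spread taken from all 9 samples, or without any 1 library (0 to 0). With the trend off, 3 other seeds were higher and 4 lower. Equal totals, equal totals without the 10 highest sequences, a pseudocount of 10, no filter and keeping repeated sequences left 5, and a mean of at least 50 and median-of-ratios scaling left 4. The causes were not tested. Over 18 alternatives the differences ranged from 0.53 to 0.74 for TCCGAGT, 0.51 to 0.65 for TCCCTGT, 0.48 to 0.67 for TCCCGGC, 0.44 to 0.50 for TCTCGCT and 0.39 to 0.46 for TCCCACT. Arm balance gave 0 to 1 called higher (Mir7658) without 1 library and 0 otherwise.

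Deviations of control and 1 µM libraries with the same number correlated at −0.13, −0.14 and −0.16, and those with different numbers at −0.07 to 0.16. These small values do not settle whether libraries were paired. No label states a pairing, so the numbers were not taken as pairs. With the replicate block, 0 sequences, 0 seed families (smallest adjusted p 0.252) and 0 arms were called.

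Leaving out 1 library turned the direction of 9 named sequences and 2 seeds that did not pass, all with differences near 0 beside their spread. Over the 6 omissions, and turned by control replicate 3, miR-16-5p ranged from −0.058 to 0.27, miR-30b-5p from −0.063 to 0.27, miR-34a-5p from −0.15 to 0.16, miR-147-3p from −0.27 to 0.59, miR-191-5p (and its seed AACGGAA) from −0.15 to 0.18 and the seed CCCTGAG from −0.24 to 0.0031. Turned by replicate 3 at 1 µM, miR-30a-5p ranged from −0.11 to 0.16, miR-30e-5p from −0.17 to 0.23, miR-146b-5p from −0.10 to 0.10 and miR-486a-5p from −0.20 to 0.71. The median half-width of the 95% intervals of abundant sequences was 0.31, against 1.47 over all sequences tested, and rare sequences rest on a few reads.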
